A study of Mus musculus with 8 samples.

Results

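The genes *Fkbp5*, *Zbtb16*, *Tsc22d3*, *Sgk1*, *Klf9*, *Mt1*, *Mt2*, *Nr3c1* and *Hsd11b1*, which belong to the biology of glucocorticoid hormones, were followed through the mouse iris. They are 9 of the 22873 genes in the data and were chosen by gene symbol, as the hormone receptor, an enzyme that makes its ligand and genes known to respond to it. Earlier results of these data were known when they were chosen. Their transcripts were counted in single nuclei of 10 cell types, from untreated irises (3 libraries), constricted irises (3 libraries) and dilated irises (2 libraries). All mice were wild-type albino females of 6 to 8 weeks, and each library was made from 5 or 6 irises. The dilated irises received eye drops of 5% phenylephrine and 1% cyclopentolate every hour until collection at 6.5 hours, in the dark. The constricted irises received 5% pilocarpine on the same schedule, in the light. The effects of the drugs and of the lighting therefore cannot be told apart. The untreated irises received no drops, so the hourly handling also differs between them and the other irises. No glucocorticoid is among the treatments, and no hormone level is in the data used here.

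Glucocorticoids (corticosterone in mice) enter cells and bind the glucocorticoid receptor, which is held ready by a chaperone complex in the cytoplasm and then moves to the nucleus and acts on transcription. Corticosterone follows a daily rhythm and increases with stress, and the enzyme encoded by *Hsd11b1* regenerates it inside cells from an inactive form. In the eye, glucocorticoids given as a medicine are known for increasing intraocular pressure in some people. The metallothioneins, which bind zinc and copper, respond both to glucocorticoids and, through metal response elements in their promoters, to metals and oxidants.

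In mm10, *Fkbp5* lies at chr17:28399094-28517527 (minus strand), *Zbtb16* at chr9:48654297-48836222 (minus), *Tsc22d3* at chrX:140539528-140600659 (minus), *Sgk1* at chr10:21882184-21999903 (plus), *Klf9* at chr19:23141226-23168134 (plus) and *Hsd11b1* at chr1:193221634-193264075 (minus). The metallothionein genes are neighbours on the plus strand, *Mt2* at chr8:94172664-94173568 and *Mt1* at chr8:94179082-94180327, with 5.513 kb between them. Reads from introns were counted together with those from exons. Exons make up 7.99% of the annotated span of *Fkbp5* and 2.90% of that of *Zbtb16*, but 100% of that of *Mt1*. Levels of different genes are not compared for that reason. *Mt1* and *Mt2* are close paralogs, and how reads that match both were treated is not given in the sources used here.

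The promoters of *Mt1* and *Mt2* are shown because both transcripts rose in dilator muscle of dilated irises. Each window holds the 250 bases before and the 50 bases from the transcript start annotated by RefSeq (GRCm38.p6), at chr8:94178839-94179138 for *Mt1* and chr8:94172368-94172667 for *Mt2*, both on the plus strand. Capitals mark the core of the metal response element, TGCACNC or TGCGCNC on either strand, where N is any base.
*Mt1* promoter: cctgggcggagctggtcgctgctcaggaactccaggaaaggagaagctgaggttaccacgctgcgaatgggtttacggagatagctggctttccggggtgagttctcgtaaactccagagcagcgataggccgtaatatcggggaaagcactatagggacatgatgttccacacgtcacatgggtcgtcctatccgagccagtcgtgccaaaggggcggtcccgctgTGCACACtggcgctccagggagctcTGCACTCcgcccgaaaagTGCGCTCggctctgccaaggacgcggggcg
*Mt2* promoter: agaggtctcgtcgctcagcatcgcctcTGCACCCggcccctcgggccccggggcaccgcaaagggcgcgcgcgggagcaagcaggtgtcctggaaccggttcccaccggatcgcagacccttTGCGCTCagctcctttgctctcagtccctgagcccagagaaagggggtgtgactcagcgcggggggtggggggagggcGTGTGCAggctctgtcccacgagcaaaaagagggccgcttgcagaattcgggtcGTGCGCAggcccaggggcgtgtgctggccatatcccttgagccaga
The *Mt1* window holds 3 cores and the *Mt2* window 4. Relative to the transcript start, those of *Mt1* begin at -23, 3 and 21, and those of *Mt2* at -223, -128, -50 and 5. Other annotated *Mt1* transcripts start beyond the *Mt1* window, at chr8:94179211 and chr8:94179241. All 3 cores lie before those starts, and the bases just before them are not in the window. Another annotated *Mt2* transcript starts beyond the *Mt2* window, at chr8:94172860. The gene start of *Mt2* given above lies near the end of its window, after all 4 of its cores. At least 1 core is present in 25.7% of the 32851 RefSeq promoter windows of this length, at least 3 in 1.97% and at least 4 in 0.517%. The half-site bound by the glucocorticoid receptor (TGTTCT, or AGAACA on the other strand) is present in 19.0% of the windows. It is present in 1 window of *Tsc22d3* and in windows 1, 4 and 5 of *Sgk1* (1, 1 and 3 matches). No half-site is in the windows of *Mt1*, *Mt2*, *Fkbp5*, *Klf9* and *Hsd11b1*. A pair of half-sites that face each other across 3 bases are present in 3 windows (0.00913%), and 1 of these 3 belongs to an alternative start of *Sgk1*, at chr10:21993640-21993939 on the plus strand, with the pair in capitals.
*Sgk1* promoter 5: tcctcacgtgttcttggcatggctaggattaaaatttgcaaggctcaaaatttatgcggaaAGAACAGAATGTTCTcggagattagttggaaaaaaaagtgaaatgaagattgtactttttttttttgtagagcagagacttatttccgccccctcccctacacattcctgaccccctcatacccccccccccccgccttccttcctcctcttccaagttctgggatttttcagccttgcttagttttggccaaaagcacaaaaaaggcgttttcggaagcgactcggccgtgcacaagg
A match is a description of the letters only, and binding was not measured.

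The UMIs (unique molecular identifiers, each standing for 1 captured transcript) were summed over the nuclei of a cell type in a library, and levels are given as counts per 1000000 of those UMIs (CPM). The 8 libraries hold 34357 nuclei and 5189437 to 25136427 UMIs each. In untreated irises, marker genes summed per cell type were highest in the labelled type for all 7 lists examined. The dilator muscle list was nearly as high there in sphincter 2 (3661 CPM) as in dilator muscle (3919 CPM). In constricted and dilated irises that list was higher in sphincter 2 (4667 and 4274 CPM) than in dilator muscle (3935 and 2551 CPM). Sphincter 1 had 3937 and 3552 CPM. The libraries untreated 1 and dilated 1 share 63 nucleus barcodes, which is 4.26% of the nuclei of untreated 1, and 59 of the 63 carry the same cell type label in both. No other pair of libraries shares more than 18. The calls below were therefore repeated without nuclei of shared barcodes. As described below, untreated 1 and constricted 3 were high within their conditions for *Fkbp5* and *Zbtb16*, and dilated 2 lay above dilated 1. The same held in part for other members. The irises were collected and processed in batches, and the batch of each library is not given in the sources used here.

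The receptor transcript *Nr3c1* (chr18:39410545-39519421, minus strand) was present in all 10 untreated cell types. Its mean level in untreated irises was highest in leukocytes (239 ± 125 CPM, SD, n = 3) and stroma 2 (168 ± 16.9 CPM), and lowest in sphincter 1 (76.5 ± 12.4 CPM), dilator muscle (62.8 ± 4.24 CPM) and sphincter 2 (61.0 ± 7.0 CPM). The libraries of neighbouring cell types in this order overlapped in 7 of 9 cases. *Hsd11b1* was largely a stroma 2 transcript. Its level in stroma 2, the fibroblast-like stroma, was 26.6, 45.4 and 54.3 CPM in the 3 untreated libraries. The next cell type, stroma 1, reached 8.10 CPM on average with 17.9, 5.12 and 1.23 CPM in the same libraries, all below those of stroma 2. At median depths of 2381 to 2999 UMIs per nucleus in stroma 2 and 3015 to 3581 in iris pigment epithelium (iris PE), a UMI of *Hsd11b1* was found in 8.77% of untreated stroma 2 nuclei against 0.728% of iris PE nuclei. The shares were 3.80% against 0.233% after nuclei were thinned to 1000 UMIs. Nuclei with fewer UMIs were left out of thinned shares, here 119 of stroma 2 and 37 of iris PE.

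The known target genes had different cell type orders. *Fkbp5*, which encodes a co-chaperone of the receptor, was highest in leukocytes (169 ± 174 CPM), ciliary body cells (CB, 105 ± 29.4 CPM) and ciliary body epithelium (CBE). It was lowest in dilator muscle (20.2 ± 12.8 CPM) and stroma 1 (17.8 CPM). The leukocyte level rests on 37 UMIs over the untreated libraries, and untreated 1 held only 13 leukocyte nuclei. *Zbtb16*, a zinc finger transcription factor, was highest in CBE (180 ± 144 CPM). For *Fkbp5*, *Zbtb16* and *Sgk1*, all 9 neighbours in the order overlapped between libraries. *Tsc22d3*, which encodes the leucine zipper protein GILZ, was highest in leukocytes (128 ± 33.0 CPM) and averaged 1.5 CPM in stroma 1. *Sgk1*, a kinase that regulates ion channels and transporters, was highest in CB (263 ± 125 CPM) and dilator muscle (204 ± 56.4 CPM). *Klf9*, a Krüppel-like transcription factor, was highest in stroma 1 (150 ± 4.54 CPM). Both metallothioneins were highest in iris PE and dilator muscle, which lie next to each other at the back of the iris, with *Mt1* at 499 ± 65.5 and 394 ± 46.6 CPM and *Mt2* at 93.2 ± 17 and 88.0 ± 10.7 CPM. The dilator muscle levels of *Mt1* did not overlap those of the next cell type, sphincter 2 (253 ± 46.1 CPM), and those of *Mt2* did not overlap those of sphincter 1 (56.9 ± 8.50 CPM). The highest cell type was the same for all 9 genes when doublets were left out.

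**Figure D1:**
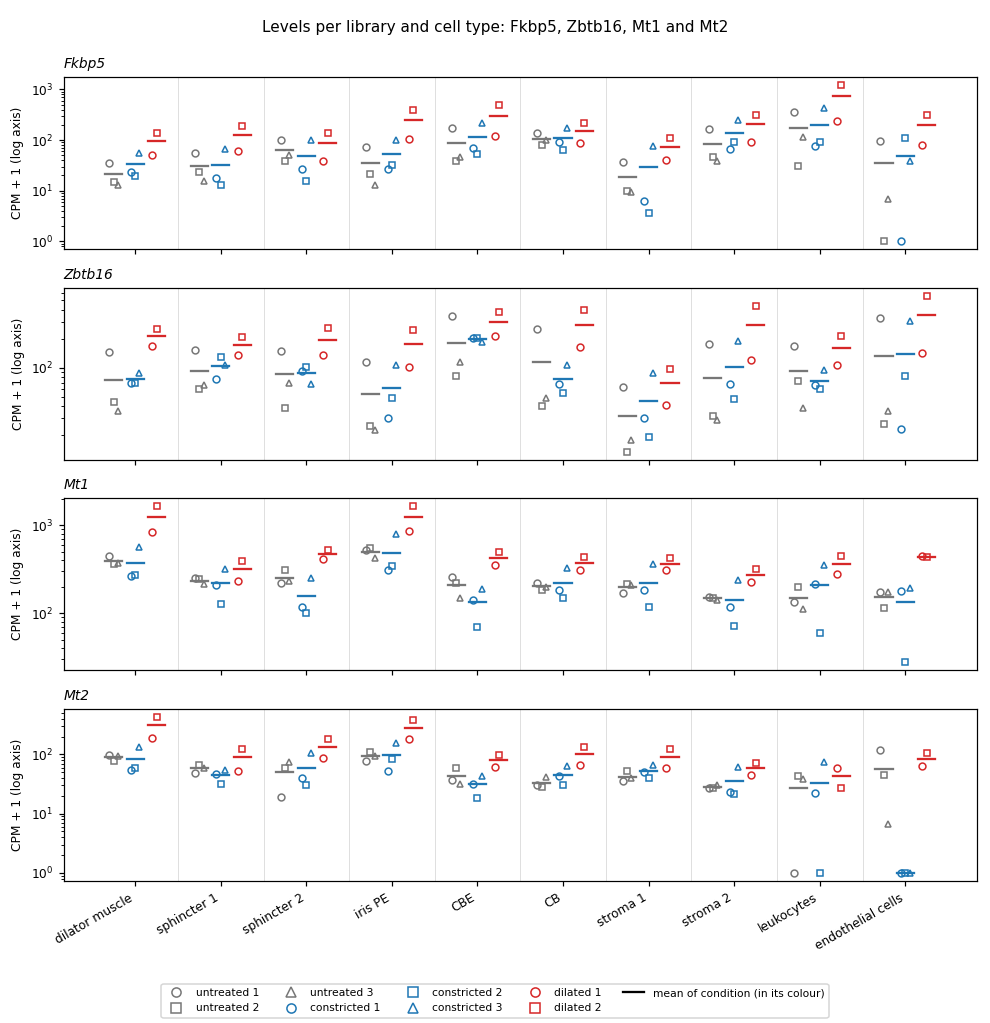
Levels of *Fkbp5*, *Zbtb16*, *Mt1* and *Mt2* in CPM (plus 1, log axis) for each of 8 libraries in 10 cell types, coloured by condition, with bars at the mean of each condition. In dilator muscle the 2 dilated libraries lie above all 3 untreated libraries for all 4 genes, whereas for *Fkbp5* and *Zbtb16* the libraries of each condition are spread widely.

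Dilated irises were compared with untreated irises, which received no drops. This difference, called the dilation effect below, holds the open pupil, the drugs, the lighting and the hourly handling together. Of the 90 pairs of gene and cell type, 71 had enough UMIs to be tested. A call needed an adjusted p under 0.05 in edgeR's quasi-likelihood test and a log2 fold change beyond 0.6 in either direction. By this rule 8 of the 71 pairs were higher in dilated irises and 0 were lower, beside 1.87% of all gene and cell type pairs tested that were higher. DESeq2 called 4 higher and 0 lower, 3 of them among these 8. The 8 pairs are *Fkbp5* in dilator muscle and sphincter 1, *Zbtb16* in dilator muscle and sphincter 2, *Mt1* in dilator muscle and sphincter 2, *Mt2* in dilator muscle, and *Klf9* in sphincter 2. In dilator muscle, 4 of 9 members rose, where 7.2% of all tested genes did. In sphincter 2, 3 of 8 rose (1.46% of all genes), and in sphincter 1, 1 of 8 (0.633% of all genes). The 2 dilated libraries lay above all 3 untreated libraries in 24 of the 71 pairs, beside 12.2% of all pairs tested, and below them in 6, beside 18.5%. The members' log2 fold changes were above 0 in 58 of the 71 pairs, and their median was 0.55 in dilator muscle and 1.29 in iris PE, where the medians of all genes were 0.02 and 0.00. All 8 calls were kept without nuclei of shared barcodes. Nuclei that carry dilator muscle markers were left out only in cell types outside the muscles. All 8 calls are in the muscles, so that setting could not test them. The 5 dilator muscle markers summed to 3654 to 4131 CPM in untreated and 2518 to 2583 CPM in dilated dilator muscle, and to 3408 to 4018 and 4125 to 4423 CPM in sphincter 2, with none of them at 0. Their part in the calls in the muscles was not tested. The number of calls depended on the libraries: without dilated 2 it was 1, and without dilated 1 it was 19, in fits where the remaining dilated library was taken to vary like the other groups. It was 15 without untreated 1, 5 without untreated 2, 4 without untreated 3 and 18 without constricted 3.

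*Fkbp5* rose in dilator muscle and sphincter 1. Its level in dilator muscle was 34.9, 13.7 and 12 CPM in untreated 1, 2 and 3, and 50.7 and 136 CPM in dilated 1 and 2. Both dilated libraries were above the untreated ones, and dilated 2 was far above dilated 1. The log2 fold change was 2.62 ± 0.53 (SE, 6.14-fold, edgeR adjusted p = 0.00603). In sphincter 1, 1 of the 2 clusters of the muscle that narrows the pupil, the untreated levels were 53.8, 22.3 and 14.4 CPM and the dilated levels 60.0 and 189 CPM, so that dilated 1 was only just above untreated 1. The log2 fold change there was 2.54 ± 0.50 (5.82-fold, edgeR adjusted p = 0.00611). In the same nuclei the 3 markers of iris PE and CBE (*Zic1*, *Otx1* and *Pax6*) summed to 1269 to 1631 CPM in untreated and 2275 to 2364 CPM in dilated libraries. The groups did not overlap, and none of the 3 genes was at 0. These genes are not all particular to the epithelia, since the study reports OTX1, OTX2 and PAX6 in the muscles too. Their sum averaged 1586 CPM in untreated dilator muscle and 2602 CPM in untreated iris PE. Their part in the *Fkbp5* difference was not tested. Without dilated 2 neither call held, with log2 fold changes of 1.64 (adjusted p = 0.077) in dilator muscle and 1.42 (adjusted p = 0.51) in sphincter 1. The sphincter 1 call was also lost without untreated 3 (2.05, adjusted p = 0.15) and with DESeq2 (2.21, adjusted p = 0.55). In iris PE the levels were 71.0, 19.9 and 11.9 CPM in the untreated and 105 and 394 CPM in the dilated libraries, without overlap, and the log2 fold change of 3.23 ± 0.71 did not pass the test (edgeR adjusted p = 0.067). In leukocytes, the cell type with the highest untreated level, it was at 364 (13 nuclei), 30.3 and 111 CPM against 241 and 1215 CPM, with overlap. Leukocytes (2.83 ± 0.75, adjusted p = 0.075) and stroma 1 (2.37 ± 0.69, adjusted p = 0.099) did not pass the test either. A UMI of *Fkbp5* was found in 6.31% of untreated and 26.0% of dilated dilator muscle nuclei, and in 2.09% and 8.75% after thinning to 1000 UMIs. In iris PE the shares were 8.76% and 42.7%, and 3.19% and 20.1% after thinning.

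*Zbtb16* was above 0 in all 10 cell types by log2 fold change (0.80 to 2.12) but had few calls. In dilator muscle it was at 145, 43.3 and 34.3 CPM in the untreated libraries and at 168 and 253 CPM in the dilated ones. The groups did not overlap, with dilated 1 close to untreated 1, and the log2 fold change was 1.85 ± 0.43 (3.60-fold, edgeR adjusted p = 0.0129). In sphincter 2 it was at 147, 37.5 and 68.2 CPM against 133 and 255 CPM. The groups overlapped there, since untreated 1 was above dilated 1, and the log2 fold change was 1.64 ± 0.34 (3.12-fold, edgeR adjusted p = 0.00523). Neither call held without dilated 2 (1.44, adjusted p = 0.099, and 1.02, adjusted p = 0.34), without untreated 2 (1.57, adjusted p = 0.064, and 1.23, adjusted p = 0.11) or with DESeq2 (1.75, adjusted p = 0.053, and 1.51, adjusted p = 0.076), and the sphincter 2 call was lost without untreated 3 (1.61, adjusted p = 0.064). In stroma 2 the levels were 173, 30.3 and 28.0 CPM against 120 and 433 CPM, with overlap (2.12 ± 0.76, adjusted p = 0.26).

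The metallothioneins rose in dilator muscle, and *Mt1* also in sphincter 2. *Mt1* in dilator muscle was at 448, 366 and 368 CPM in the untreated libraries and at 846 and 1641 CPM in the dilated ones. Both dilated libraries were clearly above all untreated ones, with a log2 fold change of 1.89 ± 0.34 (3.70-fold, edgeR adjusted p = 0.00293). This call was kept in every setting tried, over which the log2 fold change ranged from 1.22 to 2.33. *Mt2* in dilator muscle was at 96.6, 76.0 and 91.4 CPM against 185 and 432 CPM, again without overlap (2.04 ± 0.40, 4.11-fold, edgeR adjusted p = 0.00486). Without dilated 2 its log2 fold change was 1.19 (adjusted p = 0.078). In sphincter 2, *Mt1* was at 220, 306 and 234 CPM against 407 and 525 CPM, a smaller difference (0.93 ± 0.26, 1.91-fold, edgeR adjusted p = 0.0417). That call was lost without untreated 1 (0.86, adjusted p = 0.11), untreated 2 (1.11, adjusted p = 0.067), untreated 3 (0.84, adjusted p = 0.26) or dilated 2 (0.66, adjusted p = 0.46) and with DESeq2 (0.94, adjusted p = 0.20). In iris PE, *Mt1* was at 527, 545 and 424 CPM against 860 and 1630 CPM without overlap and did not pass the test (1.38 ± 0.36, adjusted p = 0.13). The dilated libraries were above all untreated ones in 9 of 10 cell types for *Mt1* and in 7 of 8 tested for *Mt2*, beside 12.2% of all pairs, and the exception for both was sphincter 1. The 5 dilator muscle markers summed on average to 3919 CPM in untreated dilator muscle. In untreated stroma 1, stroma 2, leukocytes and endothelial cells they summed to 79.2, 106, 319 and 541 CPM. The part of RNA from other cell types in these counts was not tested.

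*Klf9*, *Sgk1* and *Tsc22d3* had 1 call between them. *Klf9* in sphincter 2 was at 9.16, 68.7 and 47.4 CPM in the untreated and at 104 and 129 CPM in the dilated libraries. The groups did not overlap, but untreated 1 was far below the other untreated libraries with a single UMI, and the log2 fold change was 1.27 ± 0.35 (2.40-fold, edgeR adjusted p = 0.0396). This call was lost without untreated 1 (1.10, adjusted p = 0.075), untreated 3 (1.20, adjusted p = 0.24) or dilated 2 (1.02, adjusted p = 0.39), with DESeq2 (1.35, adjusted p = 0.25) and with doublets left out (1.20, adjusted p = 0.057). *Sgk1* passed the test in 0 of 8 cell types (4 at an unadjusted p under 0.05). In CBE it was at 317, 92.6 and 70.7 CPM against 186 and 525 CPM, so that untreated 1 was above dilated 1 (1.25 ± 0.47, edgeR adjusted p = 0.98). *Tsc22d3* passed in 0 of 7 (1 at an unadjusted p under 0.05), with log2 fold changes of -0.05 ± 0.38 in dilator muscle and 1.21 ± 0.37 in iris PE (edgeR adjusted p = 0.95 and 0.24). In iris PE it was at 50.2, 30.4 and 30.2 CPM against 50.8 and 108 CPM.

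The receptor and the activating enzyme did not pass the test in any cell type. The log2 fold changes of *Nr3c1* lay between -0.91 and -0.02 in the 9 cell types tested, with a median of -0.31 and a lowest edgeR adjusted p of 0.126 (3 cell types at an unadjusted p under 0.05). In stroma 1 it was at 158, 149 and 153 CPM in the untreated and at 107 and 83.4 CPM in the dilated libraries. The dilated libraries were below all untreated ones there (-0.67 ± 0.21) and in dilator muscle, iris PE, CBE and stroma 2, which is 5 of 9 cell types beside 18.5% of all pairs. *Hsd11b1* could be tested in 2 cell types. In stroma 2 the dilated libraries had 47.4 and 120 CPM, on either side of the highest untreated library (0.94 ± 0.39, edgeR adjusted p = 0.36), and in dilator muscle no library exceeded 4.99 CPM.

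**Figure D2:**
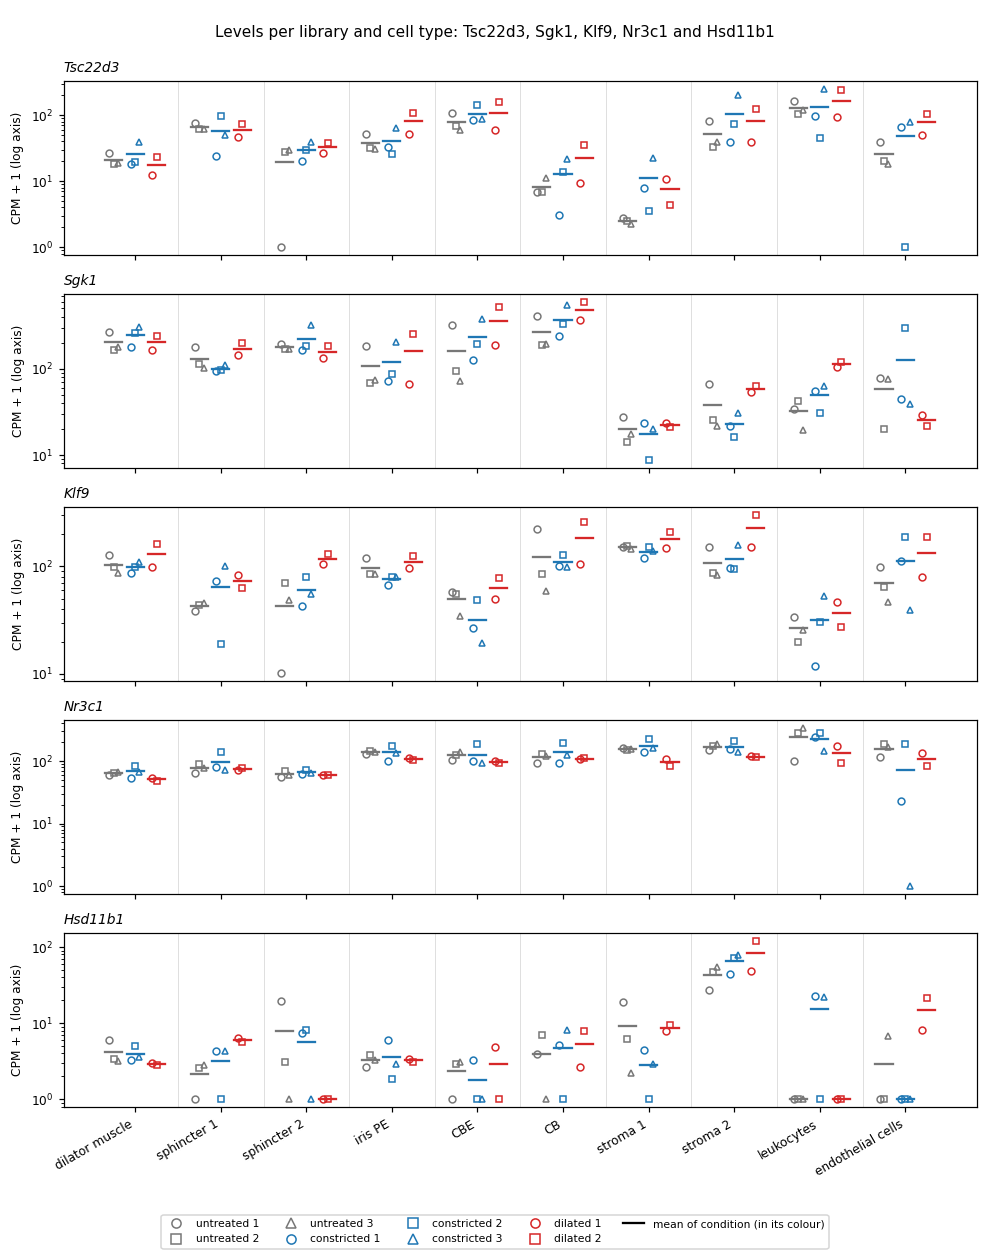
Levels of *Tsc22d3*, *Sgk1*, *Klf9*, *Nr3c1* and *Hsd11b1* in CPM (plus 1, log axis) for each of 8 libraries in 10 cell types, coloured by condition, with bars at the mean of each condition. *Hsd11b1* is highest in stroma 2 in all 3 conditions, and the dilated libraries of *Nr3c1* lie below the untreated ones in stroma 1 (107 and 83.4 CPM against 149 to 158 CPM).

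The spread between libraries of 1 condition was itself shared between cell types. Untreated 1 had the highest *Fkbp5* level of the untreated libraries in 10 of 10 cell types, constricted 3 the highest of the constricted libraries in 9 of 10, and dilated 2 the higher of the dilated libraries in 10 of 10. For *Zbtb16* the counts were 10, 7 and 10. For *Tsc22d3* they were 8, 8 and 9, for *Sgk1* 9, 8 and 8, and for *Klf9* 7, 5 and 8. *Mt1* had 6, 10 and 9, so that untreated 1 did not stand out for it, and *Nr3c1* had 1, 0 and 2. The cell types of a library come from the same animals and the same preparation, and these counts are descriptions.

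For *Fkbp5* the spread within conditions was not much smaller than the difference between dilated and untreated irises. That difference had a median log2 fold change of 2.37. Over the cell types tested, the median log2 ratio of *Fkbp5* to the other libraries of the condition was 1.93 in untreated 1, 1.82 in constricted 3 and 1.82 in dilated 2. For *Zbtb16*, with a median log2 fold change of 1.56, the medians were 1.96, 0.70 and 1.13. For *Mt1*, with a median log2 fold change of 1.00, they were 0.12, 1.14 and 0.49. In iris PE, the share of all tested genes at least as far above the other libraries as *Fkbp5* was 0.340% in untreated 1, 0.106% in constricted 3 and 0.0637% in dilated 2. In dilator muscle the shares were 2.45%, 0.123% and 0.273%. *Fkbp5* was thus near the top of all genes in these cell types of each of the 3 libraries. In CB it was less so, with shares of 13.5%, 3.62% and 0.784%. With 2 dilated libraries, the ratio of each is that of the other with the sign reversed, so which of them departs cannot be told.

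**Figure D3:**
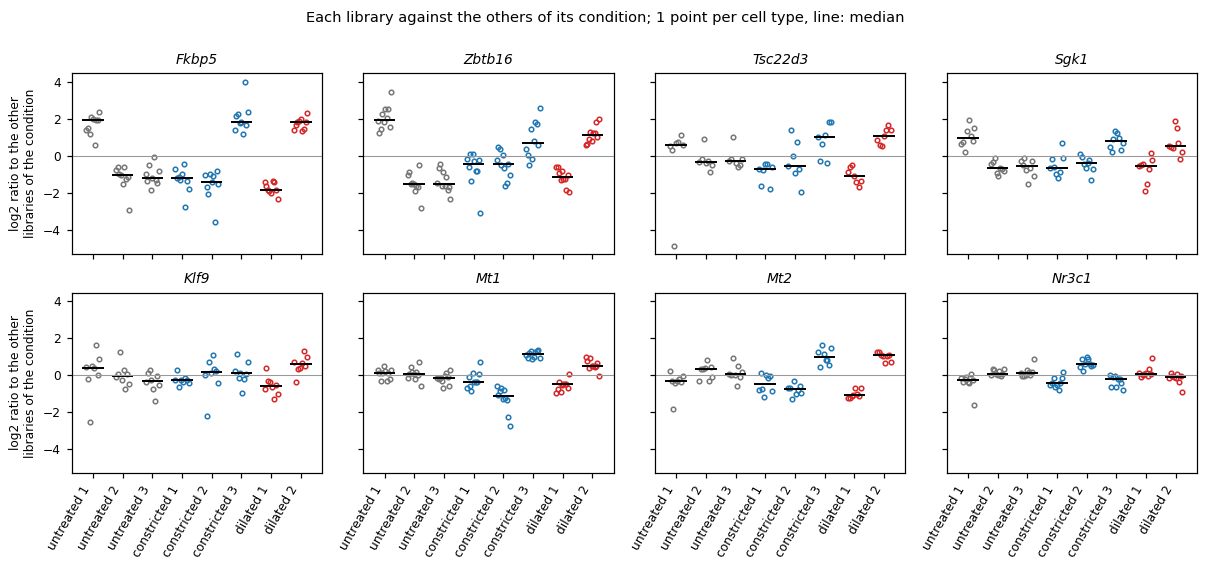
The log2 ratio of each library to the mean of the other libraries of its condition (1 CPM added), with 1 point per cell type and a line at the median, for 8 genes in 8 libraries. Untreated 1, constricted 3 and dilated 2 lie above 0 for *Fkbp5* in all cell types tested, and the points of *Nr3c1* lie mostly at or below 0 in these libraries.

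The library numbers in the labels fall into a run from 2 to 4, which holds untreated 1, constricted 1 and dilated 1, and a run from 15 to 18, which holds constricted 3, dilated 2, untreated 2 and untreated 3. Within the first run, dilated 1 was above untreated 1 for *Fkbp5* in 4 of 9 cell types, with a median log2 ratio of -0.49. Within the second run, dilated 2 was above the mean of untreated 2 and 3 in 9 of 9, with a median of 3.30. In dilator muscle the ratios were 1.44-fold and 9.88-fold, and in iris PE 1.47-fold and 23.4-fold.

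The other target genes divided in the same comparison. *Zbtb16* was higher in the dilated library in 1 of 10 cell types of the first run (median -0.57) and in 10 of 10 of the second (median 2.66), with dilator muscle at 1.16-fold and 6.37-fold. *Sgk1* was higher in 0 of 8 and in 8 of 8 cell types, *Tsc22d3* in 2 of 7 and in 7 of 7, and *Klf9* in 2 of 8 and in 8 of 8. *Mt1* was higher in 9 of 10 and in 10 of 10, with medians of 0.77 and 1.31, and *Mt2* in 8 of 8 and in 8 of 8, with medians of 0.85 and 1.45. *Nr3c1* was higher in 4 of 9 and in 0 of 9, with medians of -0.04 and -0.44. In dilator muscle *Mt1* was 1.89-fold and 4.46-fold higher, and *Mt2* 1.90-fold and 5.11-fold. The direction of the metallothionein difference was therefore the same within both runs, except for *Mt1* in sphincter 1 (0.949-fold in the first run). That of *Fkbp5*, *Zbtb16*, *Sgk1*, *Tsc22d3* and *Klf9* was not the same in most cell types. Each run has 1 dilated library, so these ratios have no test of their own, and what sets the runs apart was not tested. Nuclei with the barcodes shared by untreated 1 and dilated 1 were kept in these ratios. Sphincter 2 counts as higher in the first run for *Tsc22d3* (26.9-fold) and *Klf9* (10.3-fold). There untreated 1 (26 nuclei) was at 0 and 9.16 CPM.

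Constricted irises were compared with untreated irises in the same fits. No pair of gene and cell type passed the test among the 71 (0.0118% of all pairs did in either direction). At an unadjusted p under 0.05 there were 2 pairs, *Mt1* in sphincter 2 (-0.66 ± 0.27) and in CBE (-0.69 ± 0.29), DESeq2 called 0, and the lowest edgeR adjusted p was 0.646. *Fkbp5* in dilator muscle was at 22.3, 18.6 and 55.7 CPM in constricted 1, 2 and 3, with constricted 3 above all untreated libraries and the other libraries between untreated 1 and 2 (0.93 ± 0.52). With no filter on low counts, 2 pairs passed, *Tsc22d3* in stroma 2 (1.19, adjusted p = 2.11e-05) and *Fkbp5* in stroma 2 (0.92, adjusted p = 0.00208). In stroma 2 *Tsc22d3* was at 38.7, 73.2 and 199 CPM in the constricted and 79.8, 31.9 and 38.8 CPM in the untreated libraries, so that the groups overlapped.

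Dilated irises were also compared with constricted irises, which had received drops on the same schedule. The dilated libraries are those of the comparison with untreated irises, so the 2 comparisons are not independent. Here 8 of 71 pairs were higher in dilated irises and 0 lower, beside 1.35% of all pairs tested that were higher. In dilator muscle 4 of 9 members rose (5.59% of all genes) and in sphincter 1 1 of 8 (1.04%). In sphincter 2 it was 2 of 8 (0.971%) and in CBE 1 of 8 (0.0857%). DESeq2 called 4 pairs, all among these 8. Of the 8, 5 were kept with only the libraries compared in the fit and 6 with doublets left out. The losses named below for single pairs do not cover all of these settings. The number of calls was 3 without dilated 2 or constricted 2, 4 without constricted 1, 5 without untreated 2 or untreated 3, 13 without constricted 3 and 14 without dilated 1, and 6 without nuclei of shared barcodes. *Mt1* in dilator muscle was at 262, 274 and 564 CPM in the constricted libraries, all below the 846 and 1641 CPM of the dilated ones (1.95 ± 0.34, 3.87-fold, edgeR adjusted p = 0.00268). In sphincter 2 it was at 117, 101 and 253 CPM against 407 and 525 CPM (1.59 ± 0.28, 3.02-fold, edgeR adjusted p = 0.000915). Both of these calls were kept in every setting tried. In CBE it was at 142, 68.3 and 189 CPM against 351 and 498 CPM (1.75 ± 0.30, 3.37-fold, edgeR adjusted p = 0.0124). That call was lost without constricted 2 (1.41, adjusted p = 0.20), without untreated 2 (1.75, adjusted p = 0.059) with doublets left out (1.51, adjusted p = 0.12) and without nuclei that carry muscle markers (1.51, adjusted p = 0.13).

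*Mt2* in dilator muscle was at 54.0, 57.6 and 135 CPM in the constricted libraries against 185 and 432 CPM (2.09 ± 0.40, 4.26-fold, edgeR adjusted p = 0.00488), and at 1.24 (adjusted p = 0.078) without dilated 2. *Zbtb16* rose in dilator muscle, where the constricted libraries had 69.1, 67.8 and 87.4 CPM (1.67 ± 0.42, 3.19-fold, edgeR adjusted p = 0.0235), and in sphincter 2, where they had 90.9, 101 and 67.5 CPM (1.26 ± 0.35, 2.40-fold, edgeR adjusted p = 0.0451). The first of these was lost without constricted 1 (1.59, adjusted p = 0.067), constricted 2 (1.61, adjusted p = 0.0995) or dilated 2 (1.26, adjusted p = 0.18). The second was lost without constricted 1 (1.31, adjusted p = 0.11), constricted 2 (1.34, adjusted p = 0.067), constricted 3 (1.12, adjusted p = 0.12), dilated 2 (0.64, adjusted p = 0.71) or untreated 3 (1.25, adjusted p = 0.072), and without nuclei of shared barcodes (1.25, adjusted p = 0.051). *Fkbp5* overlapped between dilated and constricted libraries, since constricted 3 was above dilated 1 in dilator muscle (55.7 and 50.7 CPM) and in sphincter 1 (66.4 and 60.0 CPM). Its log2 fold changes were 1.69 ± 0.50 in dilator muscle (3.23-fold, edgeR adjusted p = 0.0488) and 1.89 ± 0.53 in sphincter 1 (3.71-fold, edgeR adjusted p = 0.0489). In sphincter 1 the adjusted p without nuclei of shared barcodes was 0.054. In fits without dilated 2 they were 0.71 (adjusted p = 0.55) and 0.77 (adjusted p = 0.78). Both calls were also lost without constricted 1 (1.43, adjusted p = 0.14, and 1.47, adjusted p = 0.21), constricted 2 (1.45, adjusted p = 0.17, and 1.65, adjusted p = 0.14), untreated 2 (1.70, adjusted p = 0.063, and 1.91, adjusted p = 0.0503) or untreated 3 (1.70, adjusted p = 0.055, and 1.91, adjusted p = 0.064).

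**Figure D4:**
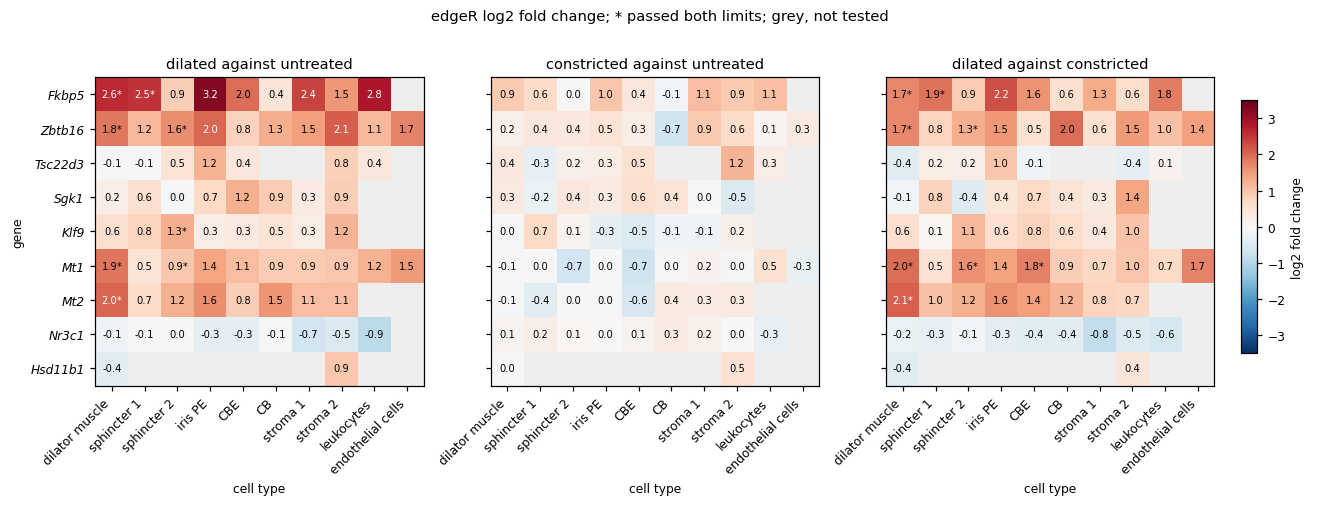
Log2 fold changes of the 9 genes in 10 cell types for dilated against untreated, constricted against untreated and dilated against constricted irises, with a star where both limits were passed and grey where a pair was not tested. The stars number 8, 0 and 8, and 5 of those in each dilated comparison are metallothionein or *Zbtb16* pairs in dilator muscle and sphincter 2.

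The dilation effect in each other cell type was set against that in dilator muscle in joint fits with a term for each library, in which a library that is high in both cell types cancels out. Of 76 tests over the 9 genes, 18 passed both limits, beside 4.52% of all tests across genes. Of these, 13 effects were smaller than in dilator muscle and 5 larger. All tests share the dilator muscle nuclei. The metallothionein effect was smaller in sphincter 1 (*Mt1* by -1.38 ± 0.21 on the log2 scale, edgeR adjusted p = 5.18e-07, and *Mt2* by -1.42 ± 0.27, adjusted p = 5.6e-05), and for *Mt1* also in sphincter 2, CB, stroma 1 and stroma 2 (-0.92 ± 0.19, -0.80 ± 0.22, -0.97 ± 0.19 and -0.86 ± 0.21). In iris PE the *Mt1* difference of -0.46 was within the fold limit (edgeR adjusted p = 0.0077).

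For *Fkbp5* the dilation effect was smaller than in dilator muscle in sphincter 2 (-1.92 ± 0.34, edgeR adjusted p = 5.31e-06), CB (-1.85 ± 0.28, adjusted p = 3.78e-07) and stroma 2 (-0.95 ± 0.20, adjusted p = 0.0069), and larger in iris PE (0.67 ± 0.21, adjusted p = 0.0388). *Tsc22d3* had a larger effect in iris PE than in dilator muscle (1.28 ± 0.18, edgeR adjusted p = 1.65e-05), *Sgk1* in CBE (1.06 ± 0.23, adjusted p = 0.000571) and CB (0.79 ± 0.22, adjusted p = 0.0167), and *Klf9* in stroma 2 (0.66 ± 0.17, adjusted p = 0.0233). *Zbtb16* had a smaller one in sphincter 1 (-1.01 ± 0.24, edgeR adjusted p = 0.0017) and CBE (-0.97 ± 0.22, adjusted p = 0.00124). No member passed the test of dilated against untreated irises in iris PE, CBE, CB or stroma 2, where the larger effects were found. Within the first run, dilated 1 was below untreated 1 for *Sgk1* in CBE and CB (0.587-fold and 0.895-fold) and for *Klf9* in stroma 2 (0.988-fold). It was above untreated 1 for *Fkbp5* and *Tsc22d3* in iris PE (1.47-fold and 1.01-fold). Taken over the 6 pairs of a dilated and an untreated library, the sign was the same in all 6 pairs for each of the 18 except *Sgk1* in CBE, where it held in 5. The number of calls was 19 without nuclei of shared barcodes. The summed dilator muscle markers in iris PE were 137 to 161 CPM in untreated and 114 to 138 CPM in dilated libraries, beside the levels in dilator muscle given above. Their part in these differences was not tested.

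**Figure D5:**
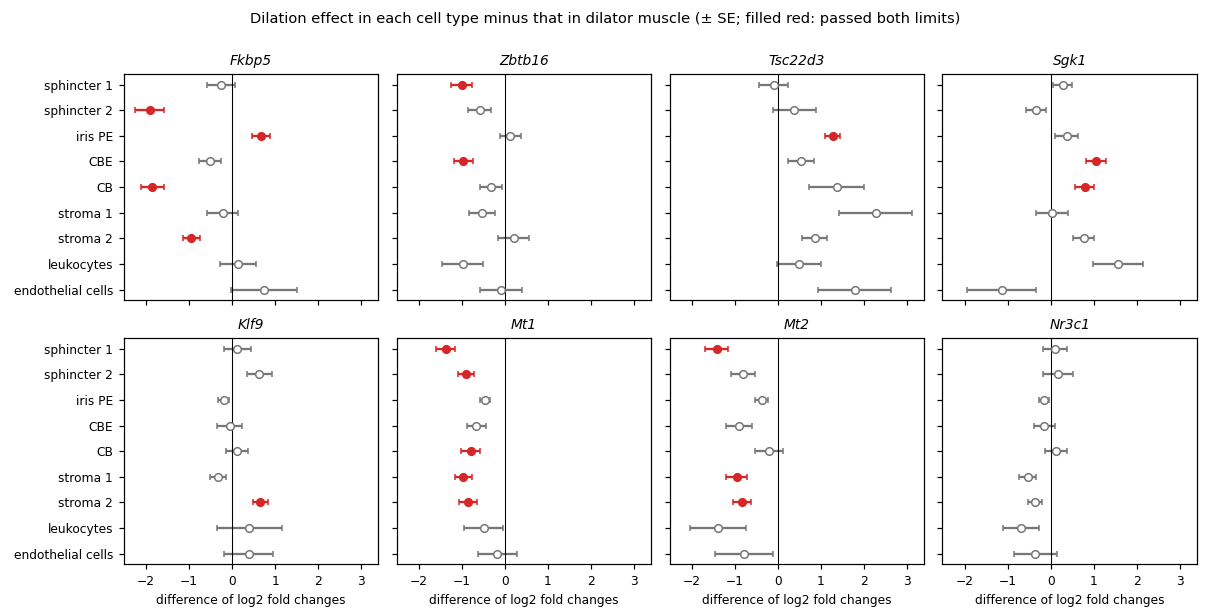
The dilation effect (log2) in each other cell type minus that in dilator muscle, with bars of 1 SE, and filled red points where both limits were passed. Every gene with a test is drawn except *Hsd11b1*. The metallothionein points lie mostly below 0 (*Mt1* in sphincter 1 at -1.38), and *Tsc22d3* in iris PE lies at 1.28.

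Other genes of the pathway were taken from 3 lists, which were chosen with earlier results of these data known. Of 22 further known glucocorticoid targets, 15 of the 113 pairs of gene and cell type tested were higher in dilated irises and 0 lower, beside 1.87% of all pairs that were higher. Their median log2 fold change was 0.55 and that of all genes 0.00. The 3 lists together had 20 calls, and 9 without dilated 2, 11 without untreated 2 and 12 without untreated 3. In dilator muscle 7 of 19 targets rose (7.2% of all genes), in sphincter 1 3 of 8 (0.633% of all genes), in iris PE 2 of 18 (0.453% of all genes) and in stroma 2 2 of 19 (1.35% of all genes). The largest in dilator muscle were *Cdkn1a*, an inhibitor of cell cycle kinases (4.33 ± 0.69, edgeR adjusted p = 0.00131, with untreated levels of at most 0.704 CPM), *Cebpb*, a transcription factor (3.52 ± 0.38, adjusted p = 9.72e-05), and *Dusp1*, a MAP kinase phosphatase (2.82 ± 0.53, adjusted p = 0.00373). In stroma 2 they were *Dusp1* (3.41 ± 0.44, adjusted p = 0.00379) and *Errfi1*, an inhibitor of the EGF receptor (2.66 ± 0.40, adjusted p = 0.00777), and in iris PE *Cebpd* (2.21 ± 0.37, adjusted p = 0.0198) and *Cebpb* (1.92 ± 0.33, adjusted p = 0.0215). The 4 endothelial markers summed to 194 to 255 CPM in untreated and 630 to 811 CPM in dilated stroma 2, without overlap and with none of them at 0. Their part in the stroma 2 changes was not tested. *Dusp1*, *Cebpb* and *Errfi1* are also known as early response genes of growth factor and stress signals. The calls of *Dusp1* in dilator muscle (1.63, adjusted p = 0.060), *Cebpd* in iris PE (1.61, adjusted p = 0.19) and *Cebpb* in iris PE (1.38, adjusted p = 0.23) were lost without dilated 2. Those of *Cebpd* and *Cebpb* in iris PE were also lost without untreated 2 (adjusted p = 0.14 and 0.16) and untreated 3 (0.12 and 0.12), as was that of *Errfi1* in stroma 2 (0.058 and 0.066).

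A list of 16 genes held the receptor's chaperones and cofactors, steroid enzymes and a related receptor. Of its 124 pairs, 2 were higher and 1 was lower, with a median of -0.01. The share of all pairs tested that were higher was 1.87%, near the share of this list. Both higher calls were in dilator muscle, where 15 of the 16 genes were tested and 7.2% of all genes were higher. The chaperones *Hsp90ab1* (1.42 ± 0.23, 2.67-fold, edgeR adjusted p = 0.00157) and *Hspa8* (1.29 ± 0.33, 2.45-fold, adjusted p = 0.0206) rose in dilator muscle, and *Nr3c2*, the mineralocorticoid receptor, fell by 0.78 on the log2 scale in stroma 1 (edgeR adjusted p = 0.0206, named after its values were seen). The call of *Hspa8* was lost without dilated 2 (0.74, adjusted p = 0.24), untreated 2 (1.22, adjusted p = 0.085) or untreated 3 (1.31, adjusted p = 0.066). Of 8 further genes of metal handling and the oxidant response, 2 of 37 pairs were higher and 0 lower, beside 1.87% of all pairs and, in dilator muscle, 2 of 7 genes beside 7.2%. They are *Mt3*, another metallothionein (1.27 ± 0.25, 2.41-fold, edgeR adjusted p = 0.00501), and *Gclc*, a subunit of the enzyme that begins glutathione synthesis (0.97 ± 0.20, 1.96-fold, adjusted p = 0.00665), both in dilator muscle. In constricted irises 0 pairs of the 3 lists passed edgeR's test against untreated irises, with 3, 6 and 0 pairs at an unadjusted p under 0.05.

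Among the genes whose levels ran most like those of *Fkbp5* over the 30 means of cell type and condition were *Cebpd* (Pearson's r of log2(CPM + 1) = 0.76), *Rps9* (0.73), *Per1* (0.73) and *1700016D06Rik* (0.71), out of 13095 genes of at least 5 CPM. For *Zbtb16* they were *Eef2* (0.74), *Rpl41* (0.72), *Btg2* (0.71), *Mat2a* (0.70) and *Drg1* (0.69). Among the members, *Mt1* and *Mt2* were the most alike (0.75), followed by *Fkbp5* and *Zbtb16* (0.64) and *Fkbp5* and *Tsc22d3* (0.60). The means share libraries and depth, and these values carry no test.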

How the data were processed

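Nuclei of 8 libraries were profiled with 10x Genomics Chromium v3 chemistry. The authors mapped reads to a pre-mRNA index of mm10 with Cell Ranger 3.1.0, removed nuclei outside their limits, assigned cell types with Seurat and deposited raw UMI counts for each nucleus and gene. They also deposited the percent of mitochondrial transcripts per nucleus, which reached at most 0.991%. The median number of UMIs per nucleus was 2775 to 4697.5, and a weak gene has few UMIs in the rare cell types. Counting the UMIs of intact nuclei leaves out cytoplasmic RNA. Here the UMIs of each cell type were added up within each library and tested with edgeR 4.0.16 (R 4.3.3: TMM normalization, filterByExpr, two-sided quasi-likelihood test, 1 fit per cell type with all 8 libraries, Benjamini-Hochberg adjustment over all genes tested). Standard errors came from the log2 fold change and F. Differences between cell types used joint fits with library terms. Alternatives included DESeq2 1.42.0, RLE factors, no low-count filter, doublets left out (Scrublet in scanpy 1.11.5) and each library left out. The scripts were tested on simulated data. Libraries are separate pools of irises by the study's methods, and p-values measure the spread between them. Gene positions are from GENCODE vM21 and promoters from RefSeq, which gave windows for 7 of the members examined, with no entry for *Zbtb16* and none read for *Nr3c1*. The members, the gene lists and the tests were chosen with earlier results of these data known. Named list genes are up to 3 called genes per list in dilator muscle, iris PE and stroma 2 with the largest change and no overlap between libraries. The 5 genes most like *Fkbp5* and *Zbtb16* by Pearson's r were also named, except 1 that is not reported here.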

Additional observations from a re-analysis of the deposited data

Results flagged for a closer look

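By edgeR's interaction test, the dilation effect differed between dilator muscle and another cell type in 18 of 76 tests. Of all tests across genes, 4.52% passed. Each difference is given here as the log2 effect in the other cell type minus that in dilator muscle. For *Fkbp5* the differences were -1.92 in sphincter 2, -1.85 in CB, -0.95 in stroma 2 and 0.67 in iris PE. For *Zbtb16* they were -1.01 in sphincter 1 and -0.97 in CBE. *Tsc22d3* differed by 1.28 in iris PE, *Sgk1* by 1.06 in CBE and 0.79 in CB, and *Klf9* by 0.66 in stroma 2. *Mt1* differed by -1.38 in sphincter 1, -0.92 in sphincter 2, -0.80 in CB, -0.97 in stroma 1 and -0.86 in stroma 2. *Mt2* differed by -1.42 in sphincter 1, -0.96 in stroma 1 and -0.83 in stroma 2. Both metallothioneins thus had a smaller dilation effect than in dilator muscle in sphincter 1, stroma 1 and stroma 2. The larger effects were those of *Fkbp5* and *Tsc22d3* in iris PE, *Sgk1* in the 2 ciliary body cell types and *Klf9* in stroma 2. None of these passed the test of dilated against untreated irises within its own cell type. All these tests share the dilator muscle nuclei, and no explanation of the differences was tested.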

How the results depend on the processing

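Of the 71 gene and cell type pairs, 8 were called for dilated against untreated irises. The count was 4 with DESeq2, 34 of 90 pairs with no low-count filter, 17 with only the libraries compared in the fit, 26 with the library-number series as a term, and 1 (without dilated 2) to 19 (without dilated 1) with a library left out. For dilated against constricted irises it was 8, with 4 by DESeq2, 25 with no low-count filter, and 3 to 14 with a library left out. For constricted against untreated irises it was 0, with 2 when low counts were not filtered and 0 to 0 with a library left out. The pathway lists had 20 calls for dilated against untreated irises, 44 with no low-count filter, 44 with the series term, and 9 to 28 with a library left out. Of the 4 DESeq2 calls for dilated against untreated irises, 3 are among the 8. The fits with only the libraries compared (77 pairs tested) and with the series term each called 1 pair lower. With no low-count filter, 1 of the 25 calls for dilated against constricted irises was lower. The cause of these shifts was not tested. Of the other alternatives, RLE normalization, doublets or muscle-marker nuclei left out, no fold limit and shared barcodes left out kept each count within 1.5 times its main value. None of the called values named in the text reversed its sign under these alternatives. Among all 71 pairs of dilated against untreated irises, called or not, up to 10 changed sign with a library left out (without dilated 2). Leaving out a library was not run for the differences between cell types.

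With the replicate number as a block, the calls were 19 for dilated against untreated, 10 for dilated against constricted and 0 for constricted against untreated irises, and 29 for the lists. The labels do not say what a number stands for, and not every same-numbered pair deviated together, so the libraries were not treated as paired: the deviations of the 7 same-numbered pairs correlated at -0.14 to 0.62 over 12709 genes in all nuclei of a library, 5 of them above 0.1. Constricted 3 and dilated 2, which carry different numbers, correlated at 0.68. Dilated 1 and constricted 3 correlated at -0.68, since the deviations of the 2 dilated libraries mirror each other. Depth limits the rarest cell types most, and 19 of the 90 pairs did not pass the low-count filter.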
